A study of Homo sapiens with 12 samples.

Results

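Cytochrome P450 enzymes were followed through 8 CUT&Tag peak lists of HepG2/C3A cells, a clonal line derived from a human hepatocellular carcinoma. The 56 genes were all RefSeq protein-coding genes of the GRCh38 assembly whose symbol is CYP followed by a digit, out of 20037 protein-coding genes on the 24 chromosomes. They were chosen by symbol and not by any measured value. They fell into 17 families on 15 chromosomes, and their gene bodies (transcribed spans, introns included) ranged from 3.23 kb to 212 kb with a median of 21.9 kb, against 24.1 kb over all protein-coding genes. Merged, the P450 gene bodies spanned 1.77 Mb.

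P450 enzymes are haem proteins that insert an oxygen atom into small lipophilic molecules, with electrons supplied in the endoplasmic reticulum by P450 reductase and in mitochondria by ferredoxin. The liver is their best-known site. Hepatocytes use families 1 to 3 to clear drugs and other foreign compounds, and further families to make bile acids and cholesterol, while related enzymes make steroid hormones in the adrenal glands and gonads, degrade retinoic acid, activate or inactivate vitamin D, and oxidise fatty acids. H3K27me3, trimethylation of lysine 27 on histone H3, is placed by Polycomb repressive complex 2 and marks repressed chromatin, often over developmental genes. Succinyl groups on lysine (Ksu) are derived from succinyl-CoA, a metabolite of the citric acid cycle.

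Cells in high-glucose medium with serum received 10 mM sodium succinate in sterile water for 48 h or served as controls, which the design text calls vehicle. Chromatin was profiled with an antibody against H3K27me3 or a pan-succinyllysine antibody that is not specific to histones. Each antibody and treatment had 2 biological replicates, and the labels do not say whether these were separate cultures or days, so a p-value measures only the spread between these samples, which may be technical. The 4 IgG samples of the series were not analysed here, so no value is set against an antibody background. The comparison between treatments asks whether succinate changes succinylation and repressive methylation of chromatin. The libraries are called control 1, control 2, succinate 1 and succinate 2, and values are given in that order.

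The libraries differed in how much was called. The H3K27me3 lists held 19133, 5813, 9985 and 5531 peaks, and the Ksu lists held 76702, 382019, 294568 and 629903. The lowest total signal of any peak, counted in the library's own signal step, ranged from 51892 to 330250 for H3K27me3 and from 49.0 to 8977 for Ksu, so the weakest peak kept in one list was far from the weakest kept in another. The read depth is unknown from peak lists. With all peaks used, the gene counts and cover of the P450 set are therefore set beside the same measure over all protein-coding genes of the same library. Distances to peaks, Ksu inside and outside H3K27me3, and the bases shared between Ksu libraries are given for P450 genes only. None of 12 hepatocyte genes checked, ALB, APOA1 and HNF4A among them, was overlapped by H3K27me3 in any library. Most genes were like this, with 75.0% of all protein-coding genes overlapped in none. Among 10 genes of other cell types, 6 were overlapped in all 4 libraries, beside 12.3% of all genes, and 3 in none.

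The sequence before the start of 6 P450 genes is shown because these genes mark the ends of what the H3K27me3 lists held. Each run is the 250 bases before the transcription start in RefSeq's GRCh38.p14 annotation, written 5′ to 3′ on the gene's own strand, with CpG dinucleotides in capitals. CYP26B1 and CYP2E1 were overlapped by H3K27me3 in all 4 libraries, CYP26A1 in 3, and CYP3A4, CYP2C8 and CYP27A1 in none. CYP26A1 and the last 3 were picked for display after their values were seen. The windows lie at chr2:72147863-72148112 (minus strand, CYP26B1), chr10:133527113-133527362 (plus, CYP2E1), chr10:93073225-93073474 (plus, CYP26A1), chr7:99784185-99784434 (minus, CYP3A4), chr10:95069498-95069747 (minus, CYP2C8) and chr2:218781897-218782146 (plus, CYP27A1).
CYP26B1: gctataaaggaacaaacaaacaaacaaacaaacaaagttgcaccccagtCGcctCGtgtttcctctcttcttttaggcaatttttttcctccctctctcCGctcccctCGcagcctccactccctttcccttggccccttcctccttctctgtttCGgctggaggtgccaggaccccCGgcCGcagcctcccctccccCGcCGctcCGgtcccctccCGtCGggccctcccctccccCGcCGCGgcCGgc
CYP2E1: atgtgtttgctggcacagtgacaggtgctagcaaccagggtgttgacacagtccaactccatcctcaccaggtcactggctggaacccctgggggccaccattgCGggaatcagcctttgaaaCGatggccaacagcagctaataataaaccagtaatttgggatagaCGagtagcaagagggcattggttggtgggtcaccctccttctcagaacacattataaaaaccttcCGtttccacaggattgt
CYP26A1: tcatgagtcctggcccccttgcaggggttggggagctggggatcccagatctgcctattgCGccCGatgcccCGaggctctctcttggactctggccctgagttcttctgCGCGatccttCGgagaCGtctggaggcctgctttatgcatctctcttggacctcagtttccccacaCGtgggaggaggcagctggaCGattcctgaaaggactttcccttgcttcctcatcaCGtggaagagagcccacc
CYP3A4: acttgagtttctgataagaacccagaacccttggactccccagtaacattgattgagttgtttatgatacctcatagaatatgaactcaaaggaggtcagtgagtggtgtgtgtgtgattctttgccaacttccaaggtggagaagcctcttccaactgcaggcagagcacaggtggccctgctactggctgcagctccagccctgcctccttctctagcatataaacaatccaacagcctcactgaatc
CYP2C8: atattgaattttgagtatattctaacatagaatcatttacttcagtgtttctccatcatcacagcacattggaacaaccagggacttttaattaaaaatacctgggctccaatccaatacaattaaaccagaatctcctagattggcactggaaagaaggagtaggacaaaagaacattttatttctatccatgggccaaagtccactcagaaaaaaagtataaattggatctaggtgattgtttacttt
CYP27A1: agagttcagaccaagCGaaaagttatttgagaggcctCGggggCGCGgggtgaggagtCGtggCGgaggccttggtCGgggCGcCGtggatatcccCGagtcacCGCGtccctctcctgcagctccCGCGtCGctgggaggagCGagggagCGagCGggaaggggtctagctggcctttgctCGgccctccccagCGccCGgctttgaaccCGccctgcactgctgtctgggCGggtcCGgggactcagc

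The printed runs differed widely in CpG content. CYP27A1, the mitochondrial sterol hydroxylase of bile acid synthesis, had 24 CpG and CYP26B1 had 16, CYP26A1 had 10 and CYP2E1 had 4, and the runs of CYP3A4 and CYP2C8 had 0. CYP26A1 has a further start, whose full window holds 32 CpG. In the full windows, from 250 bases before to 50 after a start, 40 of the 56 genes had an entry, with 53 windows in all. The median CpG number of a gene's richest window was 5.5 for P450 genes and 24 for all protein-coding genes with a window, and 30 of 40 P450 genes lay under that median. Among P450 genes the median was 11 for the 4 with H3K27me3 on the gene body in all libraries, 4 for the 8 with it in 1 to 3 libraries and 4.5 for the 28 with none, while over all genes the same classes had 23, 23 and 25. The motif TATAAA, the core of a TATA box, occurred on the gene's strand in a window of 17 of 40 P450 genes (42.5%) and of 8.65% of all genes. Counted on both strands, it occurred in 18 P450 genes (45%) and in 12.4% of all genes. The motif was counted anywhere in a window, so these are not counts of TATA boxes. Over all windows, 30.92% of motifs in plus-strand windows and 31.96% in minus-strand windows began 11 to 30 bases before the start. The same share for P450 genes is not given here. CYP3A7 and CYP3A7-CYP3A51P have the same window, which holds the motif, and were counted separately. Genes without a window included CYP1B1, CYP2C18, CYP2D6, CYP2F1, CYP4A11, CYP4A22, CYP4F12, CYP7A1, CYP7B1, CYP8B1, CYP11B1, CYP11B2, CYP24A1, CYP27B1 and CYP46A1.

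H3K27me3 lay on few P450 genes, at shares not far from those of all genes. Of the P450 bases under the mark, the 10 genes of the retinoid and steroid hormone groups held 55.2%, 74.6%, 69.9% and 63.0%. These groups span 68.2 and 185 kb of the 1767 kb of merged P450 bases. They had the highest cover of the role groups in each library, so a large share follows in part from that choice. CYP26B1 alone gave 18.6 kb in each library. A gene was counted as overlapped when at least 1 base of its body lay under a peak. In all 4 libraries this held for 5 P450 genes, CYP26B1, CYP2E1, CYP11A1, CYP27C1 and CYP46A1, or 8.93%, where 12.3% of all protein-coding genes were overlapped in all 4. At least 1 library had a peak on 17 P450 genes (30.4%), against 25% of all genes, and 39 (69.6%) had none, against 75.0%. The 5 genes overlapped throughout carried 66.4%, 100%, 88.8% and 91.1% of all P450 bases under H3K27me3, which came to 124, 48.7, 97.8 and 71.7 kb. The 5 genes were picked for a peak in every library, so their share is high in part by selection. In control 2 it is 100% because no other P450 gene had a peak. The same share over all protein-coding genes is not given here.

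**Figure D1:**
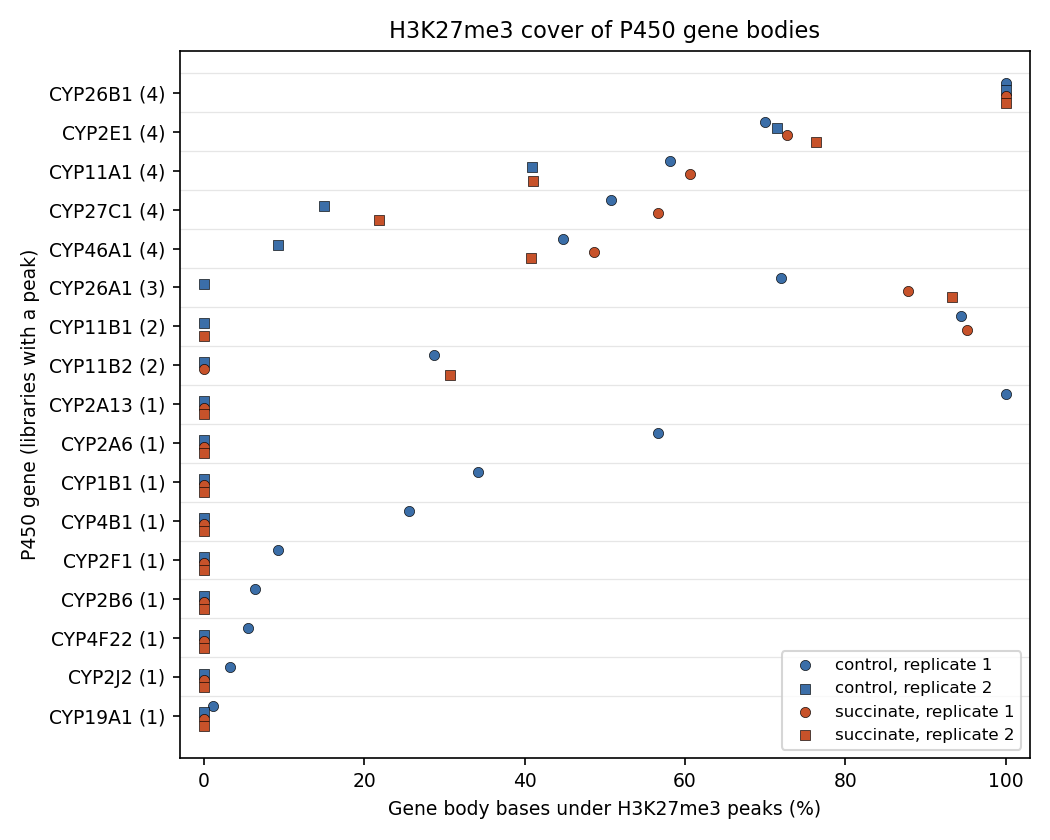
H3K27me3 cover of the 17 P450 genes with a peak in 1 or more libraries: each point is the percent of gene body bases under peaks in 1 library, blue for control and orange for succinate, circles for replicate 1 and squares for replicate 2. CYP26B1 sits at 100% in all 4 libraries, and 9 genes have a value above 0 in control 1 alone.

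Of the retinoid enzymes, CYP26B1 had the strongest mark of any P450 gene. CYP26B1, which hydroxylates retinoic acid and so ends its signal, lies at chr2:72129238-72147862 and was wholly covered, at 100% in each of the 4 libraries. A single peak spanned it each time, with widths of 38.3, 54.0, 38.1 and 40.4 kb, and touched no other protein-coding gene. Within each library its signal per base lay at the 99.8, 98.5, 99.6 and 99.4 percentile of all H3K27me3 peaks. The treatments could not differ in cover here, since every library was at the maximum.

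CYP26A1, the retinoic acid hydroxylase that retinoic acid itself induces, lies at chr10:93073475-93077885 beside CYP26C1. Its cover was 72.0%, 0%, 87.8% and 93.3%, so the libraries treated with succinate were higher than both controls, and the controls lay far apart. The peaks were 5.04, 5.66 and 5.89 kb wide in control 1, succinate 1 and succinate 2, and in control 2 the nearest peak was 284 kb away. In succinate 2 this peak was among the weakest kept, at the 1.12 percentile of total signal. CYP26C1, the third retinoic acid hydroxylase, was never overlapped, although in those 3 libraries the same peak ended 2.07 to 2.16 kb from it.

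CYP27C1, a retinol desaturase best known from skin, was covered at 50.8%, 15.0%, 56.6% and 21.8%. Replicate 1 of each treatment was higher than replicate 2 of either, and the treatments overlapped. Its peaks numbered 5, 1, 3 and 1, and a peak over the start of the gene was present every time. As a group the 4 retinoid genes had 59.1%, 35.3%, 63.2% and 44.97% of their bases under H3K27me3, or 3.06, 2.94, 3.33 and 3.09 higher on the log2 scale than all protein-coding gene bodies of the same library. This is a description of 4 genes, 2 of which are neighbours, and not a test.

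**Figure D2:**
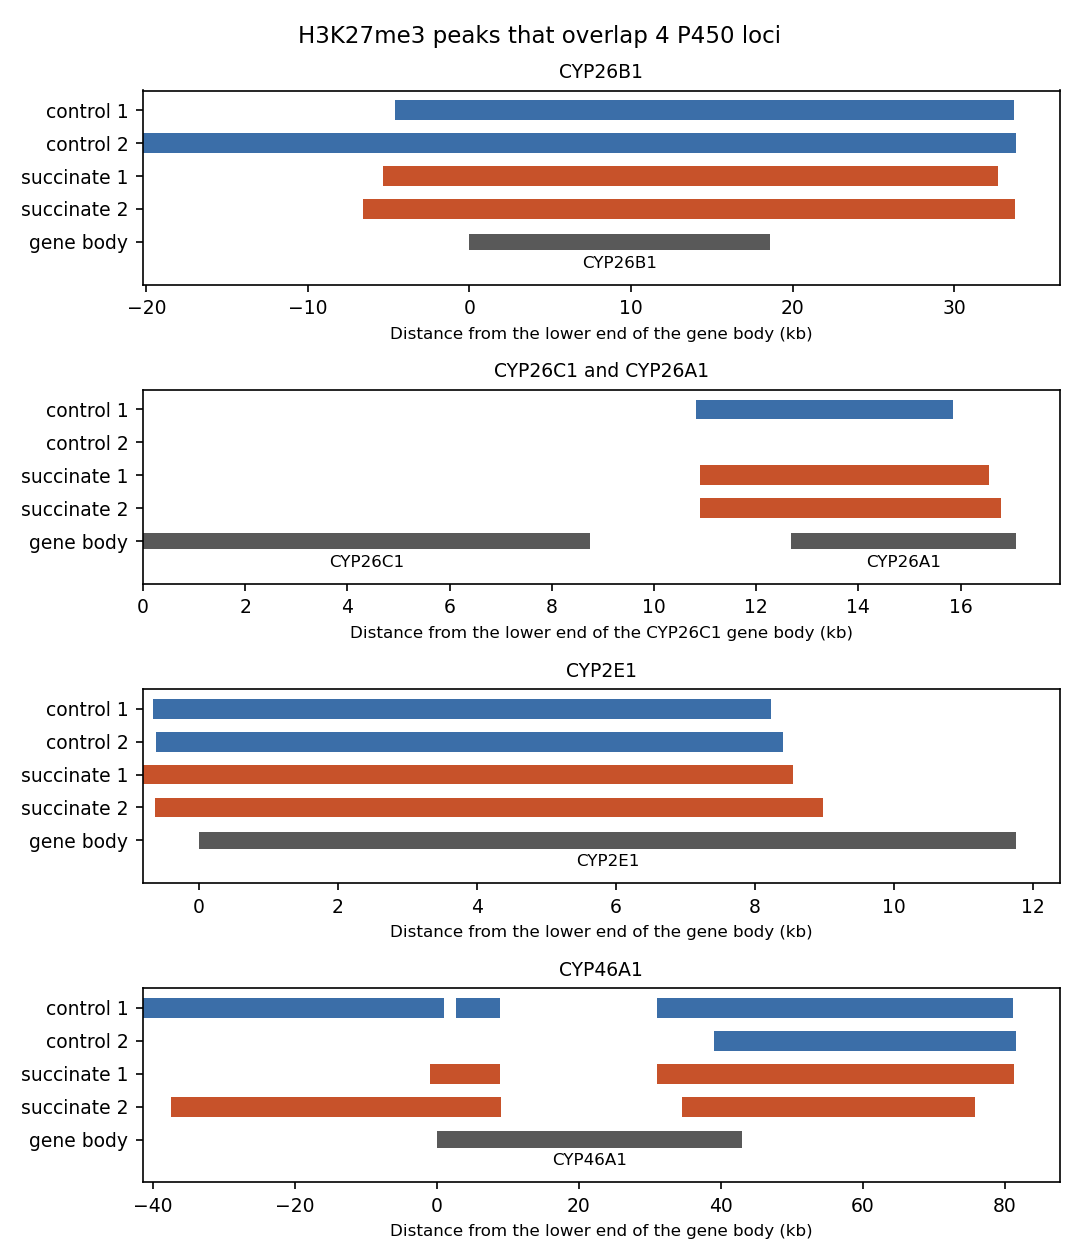
H3K27me3 peaks at 4 P450 loci, with 1 bar per peak and 1 row per library (blue control, orange succinate) above the gene bodies in grey; the horizontal axis is the distance in kb from the lower end of the named gene body. CYP26B1 lies within a peak in every library, the CYP26A1 peak is missing in control 2 and stops short of CYP26C1, and the CYP46A1 peaks reach in from the ends of the gene.

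Steroid hormone enzymes were the other group with more H3K27me3 than average. CYP11A1, which cleaves the side chain of cholesterol in the first step of steroid synthesis, lies at chr15:74337762-74367646 and was covered at 58.2%, 40.9%, 60.6% and 41.1%. Replicate 1 was again higher in both treatments, and succinate and control overlapped. Most of the cover came from a domain of 25.2, 20.8, 53.5 and 51.8 kb shared with the neighbouring gene CCDC33, which was longer in both succinate libraries than in either control. A further peak of 5.88 and 5.81 kb inside the gene occurred in control 1 and succinate 1.

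The pair CYP11B1 and CYP11B2 on chromosome 8 was less stable between libraries. CYP11B1, which completes cortisol, was covered at 94.4%, 0%, 95.2% and 0%, which separates the replicates and not the treatments. CYP11B2, which makes aldosterone, was covered at 28.7%, 0%, 0% and 30.7%, and in control 2 and succinate 1 a peak ended 1.99 and 1.79 kb from it. CYP19A1, the aromatase that makes oestrogens, had 1.09% in control 1 and 0% elsewhere. CYP17A1, needed for androgens and cortisol, lay 411 to 415 kb from the nearest peak, and CYP21A2, which serves cortisol and aldosterone synthesis in the adrenal gland, lay 4.15 to 6.38 kb from one. Over the group of 6, 4 genes had a peak somewhere and cover was 15.1%, 6.59%, 13.6% and 7.83%, against 7.07%, 4.59%, 6.29% and 5.30% over all protein-coding gene bodies.

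CYP2E1 was the only drug-metabolising P450 gene overlapped in all 4 H3K27me3 libraries. CYP2E1, which oxidises ethanol and paracetamol, lies at chr10:133527363-133539123 and was covered at 70.01%, 71.5%, 72.7% and 76.4%. The succinate libraries were both above both controls, but by a few percent of the gene. The peak ran over the start of the gene each time and widened little, from 8.90 and 9.02 kb to 9.36 and 9.61 kb. It ranked at the 72.4, 24.96, 57.3 and 29.1 percentile of total signal within its library. Its printed run holds 4 CpG and the motif TATAAA.

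The remaining drug-metabolising genes with H3K27me3 had it in control 1 alone. CYP2A13, a respiratory tract enzyme, was covered at 100% in that library, CYP2A6, which clears nicotine, at 56.7%, and CYP1B1, which acts on oestrogens and aromatic hydrocarbons outside the liver, at 34.2%. CYP2F1 of the lung had 9.26% and CYP2B6, which clears bupropion and efavirenz, 6.42%. All 5 were at 0% in the other libraries. For CYP1B1 a peak stood 2.28 kb away in control 2 and in succinate 1, and 190 kb away in succinate 2. In succinate 1 a peak stood 0.03 kb from CYP2F1 and 4.16 kb from CYP2B6. With gene bodies extended by 5 kb, CYP2F1 and CYP2B6 were each overlapped in 2 libraries and CYP1B1 in 3. CYP2A6 and CYP2A13 stayed at 1 library. CYP2A6 and CYP2A13 are close relatives of each other and of CYP2A7, and how the authors placed reads that match several copies is not given in the sources used here, so their values are uncertain.

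CYP46A1, the cholesterol hydroxylase of neurons, lies at chr14:99684298-99727301 and was the only sterol enzyme with H3K27me3. Its cover was 44.8%, 9.18%, 48.6% and 40.8%, with control 2 far below the others. The peaks lay at or near its ends and most were shared with its neighbours, HHIPL1 in control 1 and succinate 2 and EML1 in all 4. Fatty acid enzymes had the mark only in control 1, at 25.6% of CYP4B1, 5.56% of CYP4F22, which builds skin ceramides, and 3.31% of CYP2J2, an arachidonic acid epoxygenase. The 3 vitamin D enzymes had none.

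In all, 9 P450 genes were overlapped by H3K27me3 only in control 1, or 16.1%, against 4.93% of all genes. Control 1 had the most peaks and the lowest floor of the H3K27me3 lists. With equal numbers of peaks taken from each list, CYP1B1 alone of the 9 kept its peak in control 1. When only peaks above the highest floor of the 4 lists were kept, none of the 9 did. CYP2A6, CYP2B6, CYP2A13 and CYP2F1 are neighbours in a chromosome 19 cluster, so the 9 are not separate places. CYP11B1 was the only P450 gene overlapped in both replicate 1 libraries alone (2.93% of all genes), CYP26A1 the only one overlapped in all but control 2 (2.01%), and none was overlapped in the replicate 2 libraries alone (0.0549%).

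H3K27me3 was called in no library on 10 of the 16 drug-metabolising genes, 6 of the 7 sterol genes and all 3 vitamin D genes, beside the 75.0% of all genes. For the 39 genes never overlapped, the distance to the nearest H3K27me3 peak of any library had a median of 94.8 kb and ran from 2.07 to 845 kb. In every library 19 of them lay over 100 kb from a peak, and 3 came within 5 kb of a peak in some library, CYP26C1, CYP21A2 and CYP7B1. CYP2C18, CYP2C19 and CYP2C8, clustered genes whose enzymes clear omeprazole and paclitaxel among others, stood 437 to 1226 kb from any peak. The CYP3A cluster with CYP3A4, the main drug-clearing P450 of the adult liver, stood 299 to 897 kb away.

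**Figure D3:**
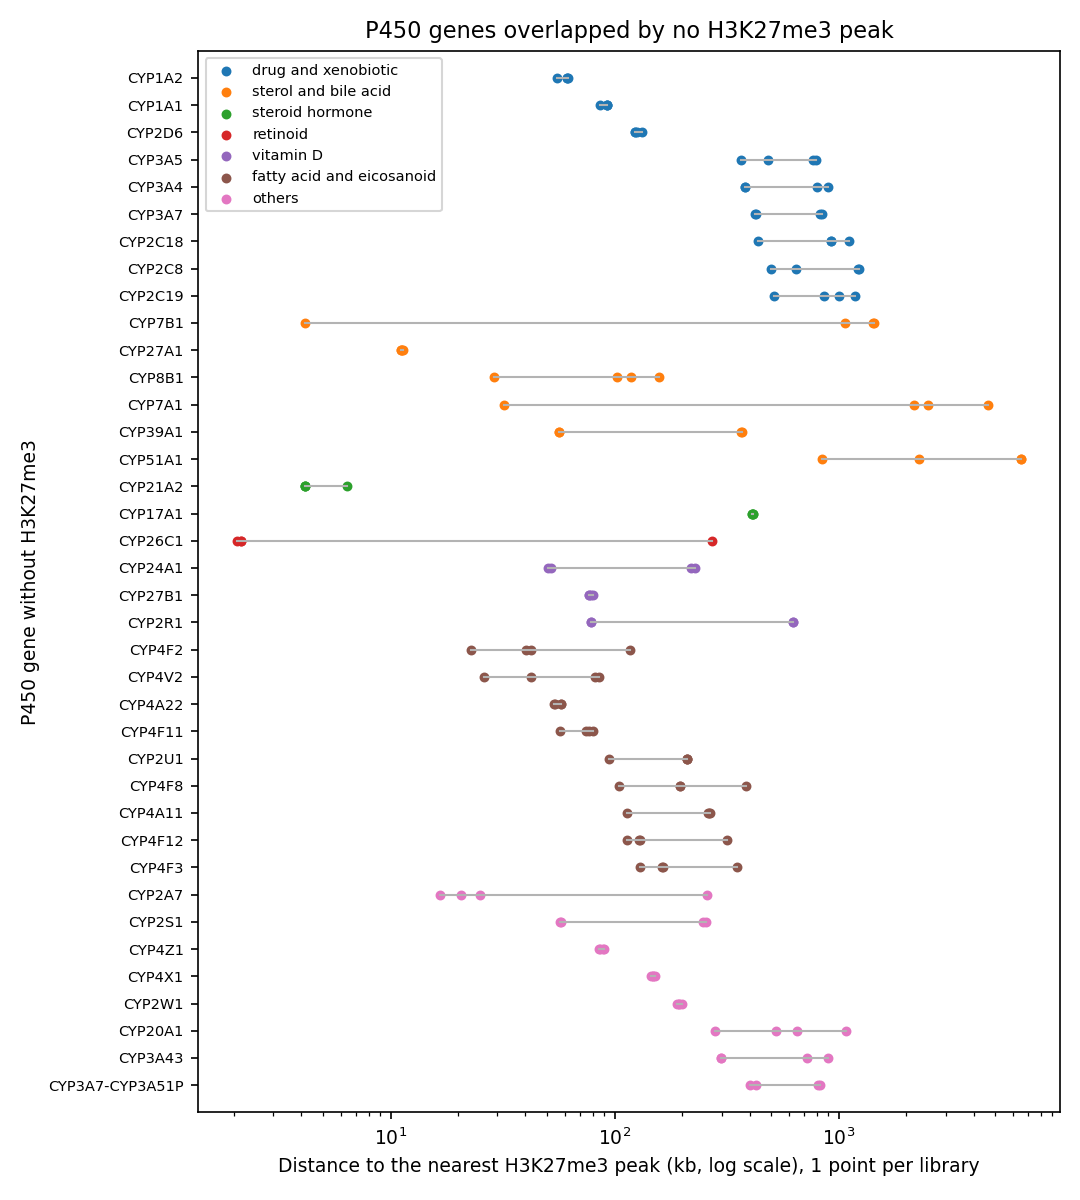
Distance in kb (log axis) from the P450 genes without H3K27me3 (all but 1 of the 39) to the nearest H3K27me3 peak, with 1 point per library and colour for role. The CYP2C and CYP3A genes shown lie about 299 kb or more from a peak in each library, whereas CYP26C1, CYP7B1 and CYP21A2 come within 5 kb in at least 1.

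CYP51A1, the lanosterol demethylase that every sterol-making cell needs, was the farthest, at 845 to 6485 kb. Nearer were CYP1A1 and CYP1A2, the aromatic hydrocarbon and caffeine hydroxylases that share a control region, at 55.2 to 92.8 kb. CYP27A1 lay 11.1 to 11.4 kb from a peak in each library, CYP8B1, which sets the share of cholic acid, 28.9 to 159 kb and CYP24A1, which inactivates vitamin D, 50.6 to 228 kb. CYP7A1, the rate-limiting enzyme of bile acid synthesis, ranged from 32.1 to 4644 kb.

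Between treatments the differences in H3K27me3 over the P450 genes were within the spread of the replicates when all deposited peaks were used, while some alternatives gave larger ones. The genes overlapped numbered 17, 5, 7 and 7 of 56, or 30.4%, 8.93%, 12.5% and 12.5%, beside 23.4%, 13.6%, 19.1% and 15.5% of all genes. The means were 11 ± 8.49 in control and 7 ± 0 with succinate (SD, n = 2 each), a difference of -4 genes with a pooled SD of 6, and the exact two-sided permutation test over 6 arrangements gave p = 1. Control 1 decides the sign: without it the difference is 2, and with equal numbers of peaks taken from each list it is 0.5. At a common floor, where only peaks above the highest floor of the 4 lists are kept, the counts are 4, 4, 5 and 7, a difference of 2 with a pooled SD of 1 and an exact permutation p of 0.333. With 2 libraries a side its p cannot go below 0.333, and no difference between treatments could pass 0.05.

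Cover was close between treatments with all peaks. The P450 bases under H3K27me3 were 6.996%, 2.75%, 5.54% and 4.06%, with means of 4.88% ± 2.999 in control and 4.80% ± 1.04 with succinate (SD, n = 2). On the log2 scale succinate was 0.11 higher, against a pooled SD of 0.71, and the exact permutation p was 1. The common floor gave 0.54 with 0.21 as its pooled SD and an exact permutation p of 0.333, and with equal numbers of peaks the difference was 0.25 with a pooled SD of 0.22 and a p of 0.667. Relative cover, the log2 ratio of P450 cover to the cover of all protein-coding gene bodies in the library, was -0.016, -0.74, -0.18 and -0.38, a difference of 0.092 with a pooled SD of 0.37 and an exact permutation p of 1. P450 genes thus held less H3K27me3 than the average gene body in each of the 4 libraries, by hardly anything in control 1, which turns to 0.16 when gene bodies are extended by 5 kb. The sign of both differences turns when succinate 1 or control 2 is left out, as it does in 2 of the other settings given in the closing section.

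Gene by gene, CYP26A1 and CYP2E1 had more covered bases in both succinate libraries than in either control, 2 of 56 (3.57%) beside 3.71% of all genes. No P450 gene had fewer (1.13% of all genes). Among genes overlapped in all 4 libraries the count was 1 of 5, CYP2E1, beside 20.2% of such genes. With equal numbers of peaks it was 3 of 56, CYP2E1, CYP11A1 and CYP27C1, beside 4.98%, and none had fewer, beside 0.923%. No P450 gene was overlapped only in both succinate libraries (0.279% of all genes) or only in both control libraries (0.145%). These shares are near the background.

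Ksu peaks were spread thinly over nearly all P450 genes. They overlapped 19, 40, 43 and 52 of the 56 genes, or 33.9%, 71.4%, 76.8% and 92.9%, beside 34.8%, 71.1%, 72.2% and 84.4% of all protein-coding genes. Cover was 2.25%, 5.85%, 6.55% and 13.7%, beside 2.47%, 5.63%, 6.72% and 12.1%. In every library the P450 genes stayed close to the whole gene set, and the 4 libraries differed among themselves by far more than P450 genes differed from other genes.

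The peaks were short and rarely at the same place. At P450 genes there were 40, 205, 194 and 465 Ksu peaks with median widths of 983, 475, 552 and 483 bases. The medians over all Ksu peaks of each library were 977, 444, 582 and 469 bases. The longest, 2340 bases in control 1, lay in CYP2C19. Of the merged P450 bases, 75.3% were under a Ksu peak in no library, 21.3% in 1, 3.17% in 2, 0.223% in 3 and 0.0111% in all 4. The last are 196 bases, all in CYP7B1, the oxysterol hydroxylase and the longest P450 gene. Genes overlapped by Ksu in all 4 libraries, 16 P450 genes (28.6%) beside 31.7% of all genes, were thus mostly overlapped at different places.

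Both succinate libraries had more Ksu over the P450 genes than either control, as they had over all genes. The genes overlapped averaged 29.5 ± 14.8 in control and 47.5 ± 6.36 with succinate (SD, n = 2), a difference of 18 with a pooled SD of 11.4. Mean cover was 4.05% ± 2.55 in control and 10.1% ± 5.06 with succinate, 1.39 higher on the log2 scale against a pooled SD of 0.87. The treatments did not overlap in either measure, and the exact permutation p was 0.333 for each, the smallest it can be. With equal numbers of peaks cover was 2.25%, 1.73%, 2.198% and 2.94%, so the treatments overlapped. The log2 difference was 0.37 with an exact permutation p of 0.667. The genes overlapped at equal numbers were 19, 16, 27 and 33, without overlap of the treatments. Their difference was 12.5 with a pooled SD of 3.35 and an exact permutation p of 0.333. At the common floor the genes overlapped were 19, 0, 19 and 20, a difference of 10 with an exact permutation p of 0.667. With all peaks, the log2 difference in cover was 0.70 without control 1, 2.08 without control 2 and 0.85 without succinate 2. The difference in genes overlapped was 7.5 without control 1 and 28.5 without control 2.

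Set against all protein-coding genes, the treatments overlapped. Relative Ksu cover was -0.14, 0.055, -0.037 and 0.18 on the log2 scale. The difference was 0.11 with a pooled SD of 0.14, and the exact permutation p was 0.667. Relative to the whole chromosomes it was 0.36 with a pooled SD of 0.16, without overlap of the treatments (exact permutation p = 0.333), and with the top 50% of peaks 0.32. It was 0.0046 without succinate 2, 0.015 without control 1, 0.22 without succinate 1 and 0.21 without control 2, so single libraries decide its size.

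**Figure D4:**
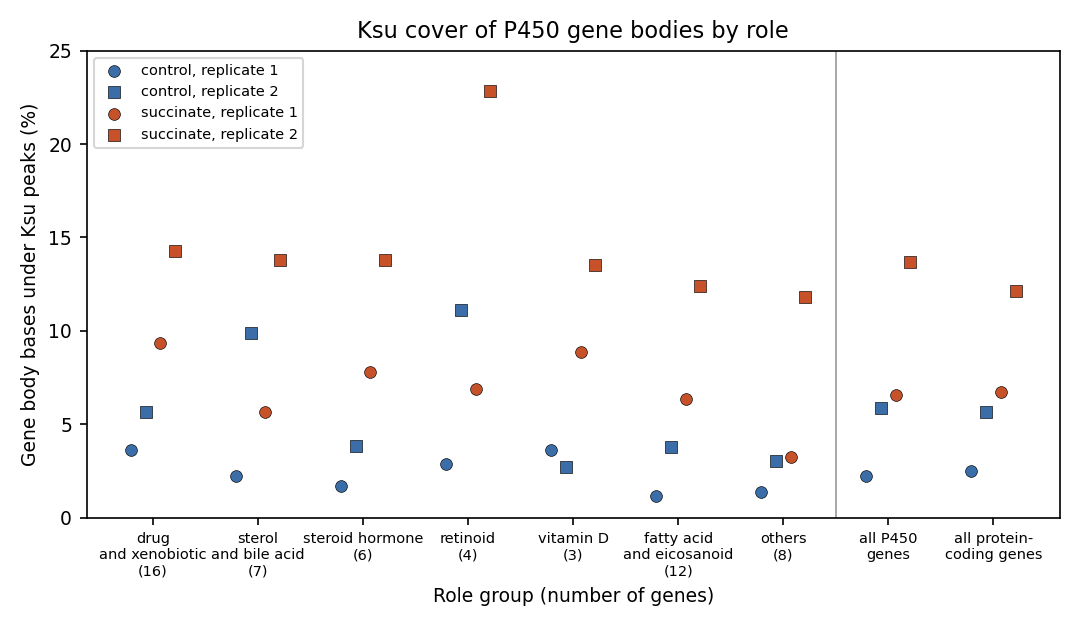
Percent of gene body bases under Ksu peaks for 7 role groups of P450 genes, all 56 P450 genes and all protein-coding genes: each point is 1 library, blue for control and orange for succinate, circles for replicate 1 and squares for replicate 2. Succinate 2 is the highest library in every group, and the P450 points at the right lie beside those of all protein-coding genes.

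Succinate 2 had the highest Ksu cover in each role group, while control 2 passed succinate 1 in the sterol and retinoid groups. The 16 drug-metabolising genes had 3.60%, 5.63%, 9.37% and 14.3%, without overlap of the treatments. The 7 sterol genes had 2.24%, 9.88%, 5.65% and 13.8%, and the 4 retinoid genes 2.85%, 11.1%, 6.86% and 22.8%. In these groups the treatments overlapped. The 6 steroid hormone genes had 1.71%, 3.85%, 7.81% and 13.8%, the 3 vitamin D genes 3.64%, 2.70%, 8.87% and 13.5%, and the 12 fatty acid genes 1.18%, 3.802%, 6.37% and 12.4%. In these 3 groups both succinate libraries were higher.

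Genes of the CYP2C and CYP3A clusters, free of H3K27me3, differed in Ksu. CYP2C18, a CYP2C gene with little known protein in liver, had 5.58%, 7.196%, 10.5% and 13.3%, above all protein-coding genes in each library. CYP2C19, which clears omeprazole and activates clopidogrel, was above them in each library as well, and CYP2C8 in all but control 2. The CYP3A cluster had 1.40%, 1.83%, 3.50% and 8.77%, below them in each. CYP2C18, CYP2C19 and CYP2C8 were overlapped by Ksu in every library, as were 2 of the 5 CYP3A genes when the readthrough gene CYP3A7-CYP3A51P, which contains CYP3A7, is counted.

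More Ksu-covered bases in both succinate libraries than in either control were found for 30 of 56 P450 genes (53.6%), beside 46.6% of all genes, and fewer for 1, CYP17A1, beside 0.484%. Among genes overlapped in all 4 Ksu libraries the count was 10 of 16 (62.5%), beside 62.3%. With equal numbers of peaks it was 8 of 56 (14.3%), beside 15.8%, and these were CYP4B1, CYP46A1, CYP4F3, CYP4F12, CYP27A1, CYP24A1, CYP2U1 and CYP3A4, all among the 30. Lower at equal numbers were 2, CYP27C1 and CYP7B1, beside 4.11%. The P450 shares lay near the background in each count of higher genes.

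CYP3A4 had Ksu cover of 0.037%, 3.90%, 5.50% and 6.58%. CYP24A1 had 3.18%, 3.05%, 11.7% and 20.1%, and CYP27A1 had 0%, 2.49%, 10.9% and 14.2%. In these 3 genes the succinate libraries lay above the controls, in CYP24A1 by the widest gap. CYP17A1 went the other way, at 13.2%, 5.55%, 0.291% and 1.86%, though with equal numbers of peaks it was not among the lower genes.

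Further drug-metabolising genes varied between libraries. CYP2C8, which clears paclitaxel, had 3.55%, 2.63%, 12.4% and 12.7%, and CYP2E1 had 0%, 3.30%, 5.90% and 9.77%. Both succinate libraries were higher in both genes and in CYP2B6, at 0%, 1.37%, 3.59% and 19.4%. CYP1A1 had 0%, 7.78%, 0% and 12.01% and CYP1A2 had 0%, 2.19%, 0% and 21.3%, which separates replicates. CYP1B1 had 0%, 15.4%, 8.43% and 11.9%, with control 2 the highest.

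Of the sterol and steroid genes, CYP7A1 had Ksu cover of 0%, 6.60%, 0% and 16.9%, again in replicate 2 only. CYP19A1 had 1.73%, 4.65%, 9.04% and 13.1%, with both succinate libraries higher. CYP26A1 had Ksu only in succinate 2, at 24.9%, and CYP26C1 had 0%, 9.55%, 3.26% and 29.5%.

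A plain mean over the 4 libraries, in which succinate 2 with the most peaks weighs most, was used to rank Ksu cover. The highest was 17.9% at CYP2D6, which clears codeine and many antidepressants, with 0%, 25.7%, 25.1% and 20.9%. It was followed by CYP8B1 with 0%, 0%, 37.4% and 20.4%, CYP26B1 with 0%, 16.7%, 9.77% and 29.95%, CYP2C19 with 9.29%, 9.59%, 14.8% and 12.99%, and CYP4B1 with 0%, 8.73%, 14.6% and 22.5%. CYP2D6 and CYP8B1 are only 4.31 and 3.69 kb long, so a few short peaks make a large share of them, and CYP2D6 has near-identical pseudogenes beside it. Among the 31 P450 genes of at least 20 kb the lowest means were 2.74% at CYP51A1 (3.46%, 0%, 2.83% and 4.68%), 2.79% at CYP3A43 (0%, 3.24%, 0% and 7.91%) and 3.29% at CYP4V2 (0%, 0%, 3.87% and 9.31%).

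Overlap by Ksu only in both succinate libraries was found for 6 P450 genes (10.7%), beside 7.63% of all genes. They were CYP4F12, CYP2A13, CYP8B1, CYP2U1, CYP4V2 and CYP11B2. In succinate 1 and succinate 2 their cover was 6.68% and 9.09%, 11.3% and 34.2%, 37.4% and 20.4%, 9.52% and 13.02%, 3.87% and 9.31%, and 12.3% and 8.95%. The count is 25 without control 2, 10 without succinate 1, 13 with peaks of at least 500 bases and 1 with gene bodies extended by 5 kb. No P450 gene had Ksu only in both controls (0.0998%).

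Ksu was found only in the replicate 2 libraries at 5 genes, CYP1A1, CYP1A2, CYP7A1, CYP11B1 and CYP3A43, beside 6.98% of all genes, and in the replicate 1 libraries alone at none, beside 0.165%. CYP27B1, which activates vitamin D, had it only in control 1, at 18.1% (0.27% of all genes), and CYP3A5 and CYP51A1 in all but control 2 (1.23%). In at least 1 library 53 P450 genes (94.6%) had Ksu, beside 90.0% of all genes. The 3 with none, CYP2A7, CYP2W1 and CYP21A2, compare with 9.97% of all genes. They are 3.23 to 6.79 kb long, and CYP2A7 and CYP21A2 have close copies.

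At the remaining P450 genes Ksu is given for succinate 2, the library with the most peaks. Cover there was 8.01% at CYP4F2, 11.2% at CYP4F11 and 17.4% at CYP4F8, whose enzymes oxidise leukotrienes, vitamin K and prostaglandins, and 14.8% at CYP4A11 and 19.7% at CYP4A22, fatty acid hydroxylases. It was 16.3% at CYP4X1, 9.10% at CYP4Z1, 12.7% at CYP20A1 and 23.1% at CYP2S1. CYP39A1, an oxysterol hydroxylase, had 17.001%, CYP2R1, which starts vitamin D activation, 4.51%, CYP3A5 12.4% and CYP3A7, the fetal liver form, 8.75%.

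H3K27me3 and Ksu were compared on the same scale through relative cover. It averaged -0.33 ± 0.31 for H3K27me3 and 0.014 ± 0.13 for Ksu (SD, n = 4 each), and Ksu was higher in 3 of 4 pairs matched for treatment and replicate. The difference of 0.34 exceeded the pooled SD of 0.24, and the exact two-sided permutation test within treatments (36 arrangements, smallest p 0.0556) gave p = 0.111. Without replicate 2 of the controls it was 0.20, with gene bodies extended by 5 kb 0.21, and with equal numbers of peaks 0.56 with an exact permutation p of 0.0556. The gap between the marks did not pass 0.05.

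**Figure D5:**
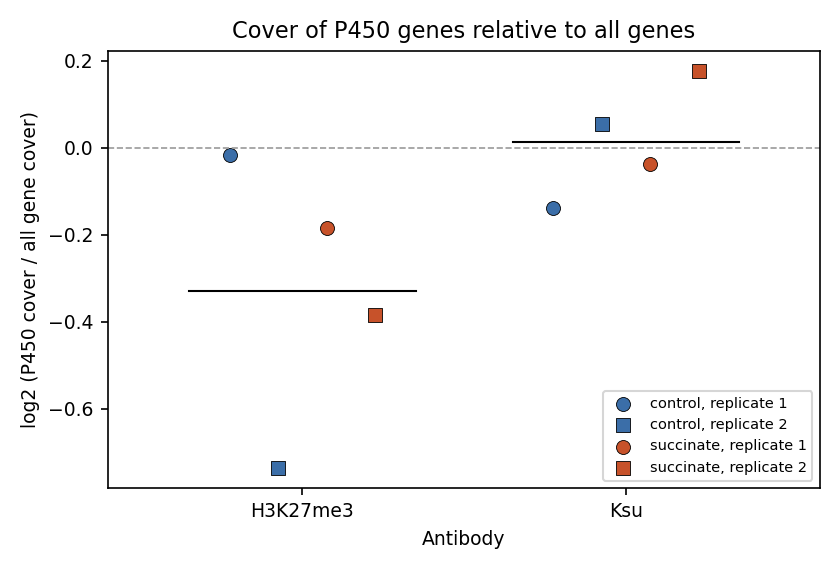
Relative cover of the 56 P450 genes, the log2 ratio of P450 cover to the cover of all protein-coding gene bodies, by antibody: each point is 1 library, blue for control and orange for succinate, circles for replicate 1 and squares for replicate 2, and the black line is the mean of 4. H3K27me3 lies between -0.74 and -0.016, and Ksu between -0.14 and 0.18 around the dashed line of equal cover.

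Ksu was not absent from P450 bases under H3K27me3. In libraries of the same treatment and replicate, Ksu covered 0.339%, 9.62%, 8.91% and 19.8% of P450 bases inside H3K27me3 peaks and 2.39%, 5.74%, 6.41% and 13.5% of those outside. It was higher inside in all but control 1. The bases inside came to only 124, 48.7, 97.8 and 71.7 kb. CYP26B1, 18.6 kb long and wholly inside in each library, had Ksu cover of 0%, 16.7%, 9.77% and 29.95%. This gene therefore weighs heavily on the inside values. The comparison without it, and the same comparison over all protein-coding genes, are not given here. The 5 genes with H3K27me3 throughout had Ksu cover of 1.39%, 5.52%, 6.24% and 20.4%. The marks come from separate libraries, so whether they sat on the same chromosomes cannot be told.

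At transcription starts few P450 genes carried either mark. Of the 40 genes with a window, H3K27me3 overlapped 7, 3, 4 and 4, or 17.5%, 7.5%, 10.0% and 10.0%, beside 16.3%, 8.94%, 13.3% and 10.6% of all genes with a window. In all 4 libraries it overlapped a window of 3, CYP26B1, CYP27C1 and CYP2E1, beside 7.8%, and in at least 1 library of 7, beside 18%. CYP11A1 had its H3K27me3 away from its start window. Ksu overlapped 1, 3, 8 and 5 of the 40 genes at the window, beside 2.54%, 9.57%, 9.69% and 15.9% of all genes. The P450 share was thus above that of all genes in succinate 1 and below it in the other libraries. Of the printed windows, those of CYP2E1 and CYP3A4 had Ksu in 2 libraries each and that of CYP2C8 in 1. The printed windows of CYP26B1, CYP26A1 and CYP27A1 had Ksu in no library.

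Genes that work with P450 enzymes were listed for comparison. None of 6 electron donors, POR, CYB5A, CYB5R3, FDX1, FDX2 and FDXR, was overlapped by H3K27me3 in any library. The same held for 75.0% of all genes. More Ksu-covered bases in both succinate libraries were found for 2 of the 6, beside the 46.6% of all genes. PTGIS, the prostacyclin synthase, which is a P450 enzyme under another name, had H3K27me3 cover of 76.5%, 47.8%, 77.2% and 83.7%. TBXAS1, the thromboxane synthase and also a P450 enzyme, had 5.05%, 0%, 2.01% and 0%.

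Among 14 regulators of P450 genes, 11 had no H3K27me3, a share near the 75.0% of all genes, including NR1I2 and NR1I3, the xenobiotic receptors that induce CYP3A4 and CYP2B6, AHR, which induces CYP1A1, and HNF4A. NR5A2, which drives bile acid genes, had 8.15%, 6.25%, 7.27% and 10.5%. VDR, the vitamin D receptor that induces CYP24A1, had 37.4%, 0%, 40.8% and 22.96%, and the retinoic acid receptor gene RARB had 0.94% in control 1 alone. More Ksu in both succinate libraries was found for 9 of the 14, beside the 46.6% of all genes.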

How the data were processed

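The libraries are CUT&Tag profiles, and the analysis started from 8 peak lists, 1 per library, so replicates were not pooled. Peaks were called with SEACR on hg38, per the submitters' processing notes, and the names of the deposited lists give its stringent mode. The authors' lists hold each peak's position, its summed signal and its highest signal. The aligner, the scaling of the signal, the threshold, the control track and the handling of reads that match several places are not given in the sources used here. In each library every highest-signal value was a whole multiple of a single step, within 0.02, so the deposited signal was never compared between libraries except in steps.

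Peaks were laid over RefSeq gene bodies of GRCh38.p14 (Python 3.11.15, numpy 2.4.6, pandas 2.3.3), with overlap at 1 base and cover as the percent of merged gene bases under peaks. Lengths and cover include introns. Treatments were compared by exact two-sided permutation tests over libraries, on log2 cover or on gene numbers, with pooled SDs over replicates. The computation was tested on simulated data. The P450 genes, role groups, partner genes and marker lists were chosen with earlier results of these data known. Named with values are genes with H3K27me3 in any library, the 5 highest and, among genes of at least 20 kb, the 3 lowest in mean Ksu cover, genes with Ksu in only 1 treatment, and a set of well-known P450 genes. Values of 1 P450 gene and of 1 marker gene are not reported here, though both stay in the counts. Others named were chosen after their values were seen. Alternatives took the top 50% of peaks, equal numbers of peaks, a common floor, peaks of at least 500 bases, peaks merged within 1 kb, gene bodies extended by 5 kb, overlap at 50% cover, cover relative to whole chromosomes, each library left out, and a replicate block. Start windows were matched by symbol for 40 of 56 genes. No P450 sequence from chromosome 8 is shown.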

Additional observations from a re-analysis of the deposited data

How the results depend on the processing

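Over 12 results and 128 alternatives, 102 kept their direction or, for counts of genes in only 1 treatment, stayed within the limits used here. Direction turned in 12, and 14 moved, up or down, to a difference of 0 or a count outside those limits. For differences only the sign was judged, whatever the size. Not all alternatives could change a result. The replicate block gives the same difference by arithmetic in 6 results. Peaks of at least 500 bases left the H3K27me3 differences between treatments as they were, and merging within 1 kb left those in genes overlapped and cover. So 102 is not a measure of how stable the results are. The cause of these changes was not tested. For H3K27me3, the difference in P450 genes overlapped (succinate minus control, -4) was 0.5 with equal numbers of peaks, 2 at a common floor, and ran from -10 to 2 with a library left out. The log2 difference in cover (0.11) was 0.54 at a common floor, 0.25 with equal numbers of peaks, -0.030 with the top 50% of peaks and -0.044 with gene bodies extended by 5 kb, and ran from -0.56 to 0.78 with a library left out. Relative cover (0.092) was -0.039 and -0.082 in the same settings and ran from -0.27 to 0.45. Genes with H3K27me3 only in succinate numbered 1 at a common floor, CYP2E1, and 0 to 1 with a library left out, CYP26A1 without control 1. Those only in control numbered 0 to 9, with 9 when control 2 was left out. A start window with H3K27me3 in all 4 libraries was held by 1 gene with the top 50% of peaks.

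For Ksu, no P450 gene was overlapped at 50% cover in any library, so the difference in genes overlapped was 0 there. It was 10 at a common floor and 12.5 with equal numbers of peaks. Relative cover (0.11) was -0.0054 with peaks of at least 500 bases, 0.32 with the top 50% of peaks and 0.36 relative to whole chromosomes. Genes with Ksu only in succinate (6) numbered 11 with the top 50% of peaks, 2 at a common floor, 13 with peaks of at least 500 bases, 1 with extended gene bodies, 0 at 50% cover, and 6 to 25 with a library left out. Those only in control (0) numbered 1 with the top 50% of peaks and 0 to 1 with a library left out, 1 without control 2. At the common floor no Ksu peak of control 2 was left on a P450 gene, so Ksu cover, relative cover and the comparison of antibodies were not computed there. The leave-one-out values of the results that kept their direction ran from 7.5 to 28.5 for Ksu genes overlapped, from 0.70 to 2.08 for Ksu cover, from 0.0046 to 0.22 for Ksu relative cover and from 0.20 to 0.50 for the comparison of antibodies.

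With the replicate number as a block, 6 results had by arithmetic the same differences as without it. These were -4 and 18 genes overlapped, 0.11 and 1.39 in log2 cover, and 0.092 and 0.11 in relative cover. The smallest exact permutation p was 0.5. The pairs share only a number in the labels. The correlation over 20037 genes between the deviations of same-numbered libraries from their treatment means was 0.34 for H3K27me3 and 0.059 for Ksu, with 2 pairs each. Peak lists hold no reads below their threshold, so a gene without a peak may carry signal that was not called, and the library with the highest floor sets what could be found in all 4.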

Other observations

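The annotation also holds 58 P450 pseudogenes, with a median length of 2.10 kb. H3K27me3 peaks overlapped 7, 0, 4 and 0 of them in control 1, control 2, succinate 1 and succinate 2, and 7 in any library: CYP4F32P, CYP4F9P, CYP2G1P, CYP2B7P, CYP2A7P1, CYP2G2P and CYP2T3P. The last 5 lie in the chromosome 19 cluster with CYP2A6, CYP2B6 and CYP2A13, whose gene bodies had H3K27me3 in control 1 only. CYP2A7P1 was wholly covered in control 1 and in succinate 1. So that cluster had H3K27me3 in both replicate 1 libraries once pseudogenes are counted. Ksu peaks overlapped 4, 19, 18 and 30 of the pseudogenes. Shares over all pseudogenes are not given here, and these spans are shorter than most genes. Whether the counts are high or low therefore cannot be told. The P450 pseudogenes are close copies of genes and of each other, and where their reads were placed is not given in the sources used here.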
